A study of Caenorhabditis elegans with 40 samples.

Results

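The arms and centres of *C. elegans* chromosomes II, III, IV and V were described in windows of 50 kb, in RNA from whole third-stage (L3) larvae. The chromosomes of the WBcel235 genome were tiled from position 1, the first and the last 4 Mb of a chromosome were taken as its arms and the rest as its centre, and each gene was placed in the window that holds its 5′ end. This gave 1351 windows of 2008 on chromosomes I to V and X, of which 641 were arm windows and 710 were centre windows. At least 1 gene started in 1346 of them, and they held 14324 genes, 5888 in the arms and 8436 in the centres.

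Chromosomes of *C. elegans* are holocentric, so arms and centres are not set apart by a centromere. The arms recombine often, are rich in repeats and in chromatin with methylated H3K9 at the nuclear periphery, and hold many young, nematode-specific gene families, while the centres hold more of the conserved genes that most tissues and the germline use. SMC complexes are ring-shaped motors that extrude loops of DNA, and each ring is closed by a kleisin subunit. DPY-26 is the kleisin of condensin I and of the X-bound condensin of dosage compensation, KLE-2 that of condensin II, and SCC-1 and COH-1 are alternative kleisins of cohesin. SDC-3 is one of the proteins that recruit the dosage compensation condensin to X.

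RNA-seq was made from 40 samples in 12 groups and 4 batches. All animals carried the insertion *ubsSi20* on II, in which the heat-shock promoter *hsp-16.2p* drives TEV protease, and all were heat-shocked for 30 min at 34 °C as L1 larvae, 3 h after being placed at 22 °C, and collected 19 h later. Cleavage groups also carried TEV sites in 1 kleisin gene or in 2 of them: *dpy-26(ubs4)*, *kle-2(ubs14)* and *scc-1(ubs19)* in batch 1 (4 samples each), and *coh-1(ubs26)*, alone or with *scc-1(ubs19)*, in batch 2 (3 samples each). Their controls were animals with the protease and no TEV sites, 4 samples in batch 1 and 3 in batch 2. The SDC-3 degron animals carried *sdc-3(ubs20)*, with an auxin-inducible degron at the N-terminus, and *xeSi376*, in which the *eft-3* promoter, active in most somatic tissues, drives the auxin receptor TIR1. They were kept on 1 mM auxin or on plates without auxin (3 samples each, batch 4). In batch 3, animals with *dpy-26(ubs4)*, the SDC-3 degron and TIR1 on 1 mM auxin were set against animals with TIR1 and no cut site or degron on 1 mM auxin, and these against animals with the protease alone on 1 mM auxin (3 samples each). Each strain is 1 line, and every sample is a pool of whole animals. Outside the comparison of SDC-3 degron animals on and off auxin, which used the same strain, the engineered change and the rest of a line's background cannot be told apart. In that comparison auxin and SDC-3 loss came together, and no batch held animals without the degron both on and off auxin. The effects of auxin and of SDC-3 loss therefore cannot be told apart.

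The libraries held between 20460404 and 88427247 reads on transcripts, with a median of 38087560. The 2 libraries that stood apart from their groups were KLE-2 cleavage replicate 3, with reads on 15884 genes against 17154 to 17512 in the other KLE-2 libraries, and SDC-3 degron no auxin replicate 3, with 15901 against 16284 and 16413 in the others without auxin. The gaps, the counts of calls and some region medians that use them are given with and without them. Other results of these comparisons, such as single windows and genes, include them. The targeted proteins are cut or degraded after translation, so their mRNA is not a check of their removal. The *dpy-26* mRNA was nevertheless lower in DPY-26 cleavage (log2 ratio −0.69 ± 0.09 SE, adjusted p = 0.00114) and in DPY-26 cleavage with the SDC-3 degron (−0.72 ± 0.11, adjusted p = 0.00751), and so was *kle-2* in KLE-2 cleavage (−0.68 ± 0.11, adjusted p = 0.0327) and *scc-1* in COH-1 SCC-1 cleavage (−0.71 ± 0.14, adjusted p = 0.0187). The values were −0.35 ± 0.12 for *scc-1* in SCC-1 cleavage (adjusted p = 0.0625), −0.23 ± 0.13 for *coh-1* in COH-1 cleavage (adjusted p = 0.86) and 0.15 ± 0.12 for *sdc-3* in SDC-3 degron animals on auxin (adjusted p = 0.507). Markers of germline, neurons, muscle, intestine and cuticle were detected in every group. The study set aside genes whose RNA oscillates during development. They were kept here, and their part in the counts and in the windows and genes named below was not tested. The study calls the replicates of COH-1 cleavage and its controls biological, and plots their fold changes by replicate batch. For the other groups nothing in the labels says that replicates came from separate cultures, and p-values there measure the spread between these samples, which may be technical.

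Arm windows held fewer genes, and other genes, than centre windows. A window held a median of 9 genes in the arms and 12 in the centres. Of the F-box genes on II to V, whose products select substrates for ubiquitin ligases, 235 of 283 (83.0%) lay in arms, and so did 75 of 85 genes with MATH and BTB domains (88.2%), against 41.1% of all genes of these chromosomes. C-type lectins, many of them induced by pathogens, had 111 of 199 genes in arms (55.8%), nuclear hormone receptors 109 of 223 (48.9%) and chemoreceptors 576 of 1233 (46.7%). The centres held the larger share of ribosomal protein genes, with 15 of 53 in arms (28.3%), of cuticle collagens, with 37 of 121 in arms (30.6%), and of germline genes, with 3 of 46 in arms (6.52%). Among single regions, the right arm of IV was the sparsest, with a median of 6 genes per window, and the centre of V the densest, with 13.

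In control animals, genes of the arms had lower RNA levels than genes of the centres in every library. The level of a window was the median over its genes of log2(TPM + 1), where TPM (a Salmon abundance scaled to the same total in each library) corrects for transcript length, and arms and centres were compared by the median over their windows. In the TEV control of batch 1 arms minus centres gave −0.754, −0.741, −0.782 and −0.788 in the 4 libraries, a mean difference of −0.77 ± 0.02 (SD, n = 4), with 1.79 ± 0.03 in the arms and 2.55 ± 0.04 in the centres. The difference was −0.69 ± 0.02 in the TEV control of batch 2, −0.69 ± 0.08 in the TEV TIR1 auxin control and −0.68 ± 0.16 in SDC-3 degron no auxin (n = 3 each), where the library that stood apart had −0.49 and the other libraries had −0.76 and −0.78. In batch 1 controls 51.3% to 52.3% of arm genes and 63.2% to 64.8% of centre genes reached 1 TPM.

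The arms were not alike. In batch 1 controls the left arm of II had the lowest median level, 0.26 ± 0.02 on the log2(TPM + 1) scale, followed by both arms of V (left 0.47 ± 0.03, right 0.60 ± 0.07) and the right arm of IV (0.60 ± 0.10). The other arms lay far above these, at 2.32 ± 0.06 for the left arm of IV, 2.38 ± 0.05 for the right arm of II, 2.73 ± 0.10 for the left arm of III and 2.81 ± 0.09 for its right arm (SD, n = 4). The left arm of IV was close to the centre of IV (2.46 ± 0.02), and in SDC-3 degron no auxin and the TEV TIR1 auxin control it lay above that centre (2.49 ± 0.06 against 2.39 ± 0.24, and 2.71 ± 0.28 against 2.60 ± 0.19, SD, n = 3). The centre of V, at 1.85 ± 0.05, was the lowest of the centres. The same 4 arms were lowest in the other control groups, where their means lay between 0.17 and 0.82. By distance, the lowest level was not at the chromosome ends: it was 2.10 ± 0.06 within 1 Mb of an end, 1.29 ± 0.04 between 2 and 3 Mb and 1.74 ± 0.04 between 3 and 4 Mb, just inside the arm boundary, and 2.33 ± 0.06 between 4 and 5 Mb, just outside it.

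**Figure D1:**
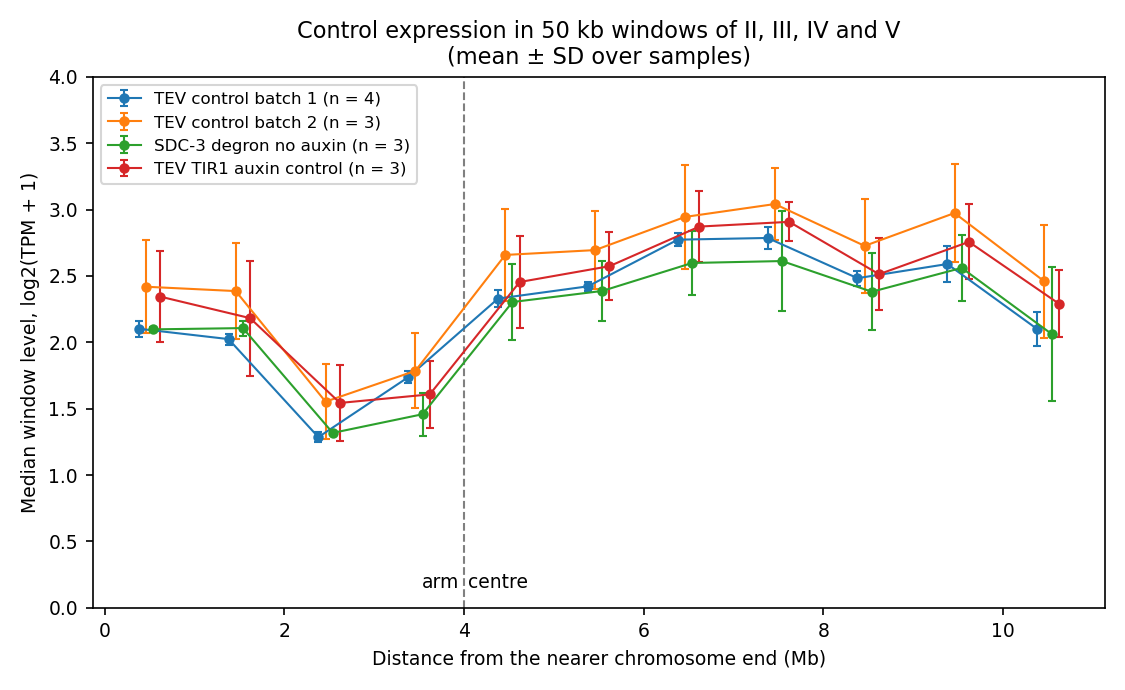
Median level of 50 kb windows of II to V, in log2(TPM + 1), against the distance from the nearer chromosome end in Mb, for the 4 control groups (points, mean; bars, SD over samples; dashed line, the arm boundary at 4 Mb). In the TEV control of batch 1 the level is 1.29 between 2 and 3 Mb and 2.79 between 7 and 8 Mb.

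The study removed each complex, and the question here was whether RNA of the arms and of the centres moved apart. For each sample, a window's value was the median over its tested genes of log2 CPM (reads scaled by library size), relative to the mean of all samples of that comparison, and the gap was the median over arm windows less the median over centre windows. The gap hardly depends on how libraries are scaled. It is a score over all windows and was given no test. In SCC-1 cleavage the gap was 0.018, 0.0040, 0.042 and 0.032, against −0.034, −0.029, −0.025 and −0.013 in the TEV control of batch 1. These groups did not overlap, and their means differed by 0.049 on the log2 scale. Leaving out each library in turn gave 0.043 to 0.053. In DPY-26 cleavage the gap was 0.013, −0.012, 0.010 and 0.029, against −0.014, −0.015, −0.018 and 0.0010 in the same controls, which overlap.

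KLE-2 cleavage had gaps of −0.050, −0.049, 0.39 and 0.0072, against −0.068, −0.066, −0.073 and −0.057 in controls. The value of 0.39 is that of the library that stood apart. The difference of the means was 0.14 with it and 0.032 without it, where the groups overlapped. In SDC-3 degron animals the gap was −0.047, −0.10 and −0.040 on auxin, against −0.040, −0.10 and 0.40 without auxin, and again the outlying value belongs to the library that stood apart. The difference was −0.15 with that library and 0.012 without it.

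The remaining comparisons overlapped. COH-1 cleavage had gaps of 0.029, −0.026 and −0.051, and COH-1 SCC-1 cleavage had 0.039, −0.013 and 0.0069 in its own fit. Against the 3 TEV controls of batch 2 the means differed by −0.039 and 0.022. DPY-26 cleavage with the SDC-3 degron had 0.090, −0.0050 and −0.029, against 0.067, −0.033 and −0.087 in the TEV TIR1 auxin control, a difference of 0.036. Between TIR1 and TEV animals on auxin, with no cut kleisin or degron, the difference was 0.017. The deepest library of a group had the highest gap in 11 of 12 groups, and in 10 of 12 after all libraries of a comparison were thinned to the same depth, a step chosen after seeing the data. The part of depth in the gap was not tested beyond this.

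**Figure D2:**
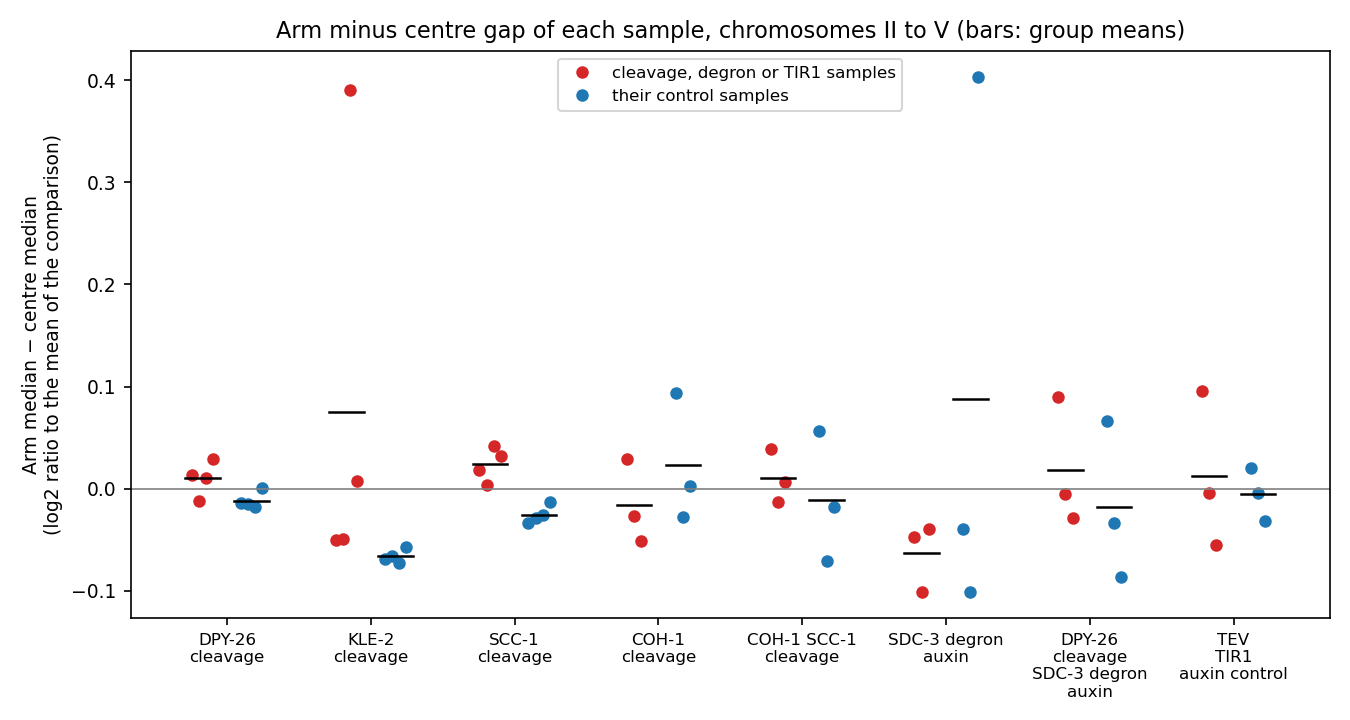
Arm median minus centre median of each sample on the log2 scale, for the 8 comparisons (red, cleavage, degron or TIR1 samples; blue, their controls; black bars, group means). SCC-1 samples, from 0.0040 to 0.042, lie above their controls, and single libraries at 0.39 and 0.40 stand apart in the KLE-2 and SDC-3 comparisons.

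DPY-26 cleavage changed genes in arms and centres, next to a rise of chromosome X as a whole, whose windows had a median log2 ratio of 0.58. Genes were tested with edgeR and called at an adjusted p under 0.05, and windows with at least 3 tested genes were tested with limma on their per-sample medians. Arm windows had a median of 6 tested genes and centre windows 9. The ratios of arm windows spread more (SD 0.27, against 0.18), so extremes and called shares of arms and centres do not rest on equal numbers of genes. In the arms 286 of 3692 tested genes were higher (7.75%) and 438 lower (11.9%), and in the centres 370 of 6208 were higher (5.96%) and 909 lower (14.6%), where over all genes tested 15.5% were higher and 11.9% lower. Of the windows, 47 of 547 arm windows were called higher and 109 lower, and 34 of 686 centre windows were called higher and 182 lower, against 22.4% higher and 20.9% lower over all windows of the genome. These directions depend on the scaling, since X weighs on the normalization. With TMM factors taken from chromosomes I to V alone, which shifts the median of all genes by 0.079, 370 arm genes were higher and 205 lower, and 490 centre genes were higher and 435 lower. The windows then were 71 higher and 24 lower in arms, and 75 higher and 41 lower in centres, where 26.2% of all windows were higher and 4.6% lower, so that 69.2% of the called windows were higher instead of 21.8%.

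The median log2 ratio of arm windows was −0.05 and that of centre windows −0.08, and with factors from I to V it was 0.03 and −0.0013. The left arm of II and both arms of V lay highest, with 0.01, 0.02 and 0.0080, and the centre of II lowest, with −0.11. With factors from I to V the left arm of V had 0.10 and the centre of II −0.03. Among genes in the lowest of 4 equal classes of control expression the gap between arm and centre genes was higher by 0.063 in DPY-26 cleavage than in controls, with no overlap (0.022 to 0.055 in DPY-26 cleavage and −0.056 to 0.0053 in controls), and it was between 0.0082 and 0.021 in the other classes, with overlap.

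The arm window with the highest ratio among those with F-box genes was II:1600001-1650000, on the left arm of II, in which 18 genes start. Its per-sample values were 0.35, 0.65, 0.48 and 1.17 in DPY-26 cleavage, against −1.16, −0.88, −0.41 and −0.28 in controls, with no overlap (log2 ratio 1.35 ± 0.22, adjusted p = 0.000935). All 6 of its tested genes were called higher, among them the F-box gene *fbxa-158*, with 0.635, 4.00, 0.900 and 1.48 CPM in DPY-26 cleavage, against 0.214, 0.105, 0.303 and 0.124 CPM in controls. The unnamed gene *C08E3.13* in the same window had 30.5, 36.5, 37.1 and 44.1 CPM, against 7.40, 12.3, 15.9 and 15 CPM in controls. Neighbouring F-box genes are similar in sequence, so reads may be divided between them. The window IV:15600001-15650000 on the right arm of IV was higher still (1.42 ± 0.25, adjusted p = 0.0016), with 3 tested genes and 1 called gene, *Y105C5A.13*.

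The lowest arm window was V:2300001-2350000, which holds the *pud* genes, named for proteins that are more abundant in mutants of the insulin receptor DAF-2. Its values were −1.68, −1.97, −2.05 and 0.21 in DPY-26 cleavage, against −0.04, 1.73, 2.61 and 1.16 in controls (log2 ratio −2.74 ± 0.61, adjusted p = 0.00639). The groups overlapped, because DPY-26 cleavage replicate 4 lay above TEV control replicate 1. The gene *pud-1.1* had 1.82, 2.08, 1.49 and 5.38 CPM in DPY-26 cleavage, against 7.12, 22.2, 38.7 and 13.2 CPM in controls, and *pud-2.2* had 15.1, 10.3, 12.5 and 43.9 CPM, against 45, 172, 268 and 115 CPM. In both genes replicate 4 was the highest of the DPY-26 cleavage libraries.

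In the centres the window V:15400001-15450000 was highest, at 0.46, 1.38, 0.59 and 0.57 in DPY-26 cleavage, against −0.67, −0.77, −0.19 and −0.77 in controls (log2 ratio 1.35 ± 0.21, adjusted p = 0.000605). Its gene *T26H5.9*, which the annotation gives no name, had 16, 30.1, 19.7 and 14.6 CPM, against 1.30, 0.673, 4.30 and 0.730 CPM in controls. The lowest centre window was IV:5850001-5900000, at −0.65 ± 0.12 (adjusted p = 0.00203). This window was also lower between TIR1 and TEV animals on auxin, where no kleisin is cut (−1.97 ± 0.29). The called gene with the highest ratio in the arms was the chemoreceptor *srw-85* on the right arm of V, with 51.5, 67.9, 58.6 and 51.6 CPM in DPY-26 cleavage, against 1.09, 0.988, 1.59 and 0.730 CPM in controls (log2 ratio 5.70 ± 0.23, adjusted p = 2.46e-05). In the centres *dod-21*, a target of the DAF-16 pathway, had 6.72, 56.8, 19.3 and 17.6 CPM, against 0.899, 0.189, 0.424 and 1.23 CPM. The collagen *col-133*, on the right arm of IV, was lower, with 3.87, 11.7, 2.62 and 5.57 CPM, against 35.2, 31.5, 26.5 and 17.4 CPM in controls.

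Gene families differed in how many members were called, where 6.63% of all tested genes of II to V were higher and 13.6% lower. Of 119 tested F-box genes on II to V, 29 were higher and 5 lower (median log2 ratio 0.33, against −0.06 over all tested genes of II to V). Of the 95 in arms 20 were higher, and of the 24 in centres 9 were. Nuclear hormone receptors had 21 higher and 6 lower of 172, and MATH and BTB genes 9 higher and 2 lower of 58. Chemoreceptors had 13 higher and 5 lower of 164 (median 0.13), and C-type lectins 11 higher and 12 lower of 110 (median −0.09). Collagens, with 1 higher and 11 lower of 92 (median −0.26), were called lower no more often than all genes, and the 52 ribosomal protein genes had a median of 0.0077. Summed neuron markers were 1148 to 1251 TPM in DPY-26 cleavage, against 1064 to 1111 TPM in controls, and summed intestine markers 5751 to 7431 TPM, against 5371 to 5643 TPM, without overlap. These sums include genes of X, 8 of 44 for neurons and 10 of 33 for intestine. Of the tested markers on II to V, neurons had 2 higher and 5 lower of 31 (median −0.06). Intestine had 1 higher and 4 lower of 19 (median −0.24), and muscle 0 higher and 6 lower of 19 (median −0.16). The part of these markers in the counts was not tested. With factors from I to V, 33 F-box genes were higher and 2 lower, and 29 nuclear hormone receptor genes were higher and 2 lower. In RNA of whole animals, fewer cells of a type and less RNA per cell cannot be told apart.

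DPY-26 cleavage together with SDC-3 degradation, in another batch and against the TEV TIR1 auxin control, again raised X (median window log2 ratio 0.57). In the arms 180 of 3599 genes were higher (5.0%) and 123 lower (3.42%), and in the centres 264 of 6048 were higher (4.37%) and 279 lower (4.61%), against 11.2% higher and 3.46% lower over all genes. Windows called were 25 higher and 32 lower of 540 in arms and 24 higher and 49 lower of 685 in centres, against 20.3% higher and 5.16% lower over all windows. With TMM factors from I to V, 43 arm windows were higher and 11 lower and 42 centre windows were higher and 17 lower, where 22.5% of all windows were higher and 1.68% lower, so that 75.2% of called windows were higher instead of 37.7%. For genes, those factors gave 234 higher and 94 lower in arms and 339 higher and 192 lower in centres.

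The *pud* window of V was again the lowest of the arms, at −0.82, −0.53 and −1.44 in DPY-26 cleavage with the SDC-3 degron, against 1.5, 0.37 and 0.93 in the TEV TIR1 auxin control, with no overlap (log2 ratio −1.87 ± 0.29, adjusted p = 0.000956). Its gene *pud-3* had 3.22, 2.51 and 2.30 CPM, against 34.3, 14.3 and 23.5 CPM in the TIR1 control. On the same arm the window V:2550001-2600000 was lower (−0.79 ± 0.10, adjusted p = 0.000361), though not with no filter on low counts (−0.19, adjusted p = 0.273), and *gst-10* in it, a glutathione S-transferase gene, had 35.0, 47.1 and 43.3 CPM, against 104, 139 and 114 CPM. The F-box window of II was higher (0.89 ± 0.11, adjusted p = 0.000314). The centre window V:15400001-15450000 was also higher, with 0.53, 0.58 and 0.59, against −0.54, −0.85 and −0.49 (1.2 ± 0.09, adjusted p = 8.88e-05), and *T26H5.9* had 14.8, 11.5 and 8.79 CPM, against 2.02, 1.34 and 1.65 CPM.

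The centre window V:15300001-15350000 depended on the control. It was the highest window against TIR1 animals (1.5 ± 0.12, adjusted p = 8.88e-05) and lower, at −1.13, when the TEV auxin animals without TIR1 served as control. Its genes *clec-230*, a C-type lectin, and *wrt-8*, a hedgehog-related gene, gave the same change of sign. *clec-230* had 1.75, 2.05 and 4.40 CPM in DPY-26 cleavage with the SDC-3 degron, against 0.652, 0.212 and 0.784 CPM in TIR1 animals. Of the 120 tested F-box genes of II to V 11 were higher and 2 lower in this comparison, and of the 80 collagens 5 were higher and 9 lower, against 4.6% higher and 4.17% lower over all tested genes of II to V. The endogenous *hsp-16.2* on the left arm of V, whose promoter drives the protease, was lower in DPY-26 cleavage with the SDC-3 degron (log2 ratio −1.29 ± 0.27, mean 204 CPM, against 498 CPM in TIR1 animals).

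With all libraries and no block for the replicate number, the SDC-3 degron alone gave few calls on II to V. With that block more genes and windows were called. In arms 21 of 3489 genes were higher (0.602%) and 26 lower (0.745%), and in centres 58 of 5887 were higher (0.985%) and 31 lower (0.527%), where 0.814% of all genes were higher and 0.455% lower. Of 532 arm windows none was higher and 2 were lower, and of 679 centre windows 2 were higher and 1 was lower, against 0.165% of all windows in each direction. At an unadjusted p under 0.05, 46 arm windows were higher and 69 lower. Without SDC-3 degron no auxin replicate 3, 135 arm genes were higher and 172 lower and 255 centre genes were higher and 273 lower, against 4.57% higher and 4.40% lower over all genes, and the windows called were 26 higher and 18 lower in arms (4.92% and 3.41% of 528) and 38 higher and 22 lower in centres (5.60% and 3.24% of 679), while 6.56% of all windows were higher and 3.25% lower. The median ratio of the right arm of II, the lowest region with all libraries, was −0.20, and it was −0.07 without that library.

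In one of the arm windows that were lower, II:13800001-13850000 on the right arm of II, 4 genes were called lower, among them the histone genes *his-9*, *his-14* and *his-15*. The window's values were −0.87, −0.53 and −0.98 on auxin, against 0.60, 0.90 and 0.88 without auxin (log2 ratio −1.59 ± 0.14, adjusted p = 0.0116). *his-9* had 3.59, 4.20 and 2.73 CPM on auxin, against 12.5, 13.1 and 13 CPM without auxin. A second cluster of histone genes, in the centre window V:8850001-8900000, was lower at −1.70 ± 0.18 (adjusted p = 0.018), with *his-17* at 0.947, 1.58 and 1.25 CPM, against 6.73, 6.92 and 7.20 CPM. Summed neuron markers were 1750 to 1992 TPM on auxin, against 1483 to 1671 TPM without, and summed intestine markers 7618 to 7888 TPM, against 8018 to 8653 TPM, both without overlap, and their part was not tested. Transcripts of replication-dependent histones largely lack a poly(A) tail, so libraries made from poly(A) RNA hold only part of them. The other arm window, IV:1350001-1400000, with 3 tested genes, holds the collagens *col-104* and *col-105* (−1.85 ± 0.23, adjusted p = 0.0348), and *col-105* had 0.0557, 0.181 and 0.0541 CPM, against 0.748, 0.769 and 0.916 CPM. *col-105* passed the filter on low counts through the libraries without auxin alone, so it could be tested only as a lower gene. Between TIR1 and TEV animals on auxin, with no degron, this collagen window was also lower (−2.22 ± 0.22). The calls of these 3 windows were lost without SDC-3 degron auxin replicate 1 or replicate 3, and that of the window on V also without no auxin replicate 1. In the arms the C-type lectin *clec-169* was higher, with 47.8, 44.6 and 41.8 CPM on auxin, against 10.3, 8.49 and 11.4 CPM without, and in the centres *numr-1*, which responds to metals, had 25.8, 22.8 and 63.1 CPM, against 2.06, 2.80 and 2.36 CPM. *numr-1* was also higher between TIR1 and TEV animals on auxin, with log2 ratios of 3.00 to 3.78 under the alternatives.

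In KLE-2 cleavage few genes of II to V were called. In the arms 20 of 3701 genes were higher (0.540%) and 31 lower (0.838%), and in the centres 17 of 6213 were higher (0.274%) and 49 lower (0.789%), where 0.419% of all genes were higher and 0.754% lower. None of the windows of II to V was called higher by limma, against 0.0538% of all windows, and 3 were called lower, 2 in arms and 1 in a centre, against 0.161%. At an unadjusted p under 0.05, 76 windows of II to V were higher and 75 lower. Without KLE-2 cleavage replicate 3, 42 arm genes were higher and 46 lower and 68 centre genes were higher and 76 lower, against 1.10% higher and 1.22% lower over all genes, and the called windows were 3 lower in arms and 1 higher and 7 lower in centres, against 0.108% higher and 0.647% lower over all windows. The arm median of 0.09 and the centre median of −0.05 became 0.03 and −0.0029 without it. The left arm of V had a median of 0.14 with it and 0.13 without it. Summed neuron markers were 1119 to 1164 TPM in KLE-2 cleavage, against 1064 to 1111 TPM in controls, without overlap, and their part was not tested. As single genes, 0 of the 44 neuron markers were called (median log2 ratio 0.02).

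The lowest window was V:9600001-9650000 in the centre of V, which holds *idpc-3*, *idpc-4*, *idpc-5* and *idpc-6*, named for intrinsically disordered proteins. Its values were −0.97, −0.41, −0.70 and −0.95 in KLE-2 cleavage, against 1.31, 0.92, 0.73 and 0.29 in controls (log2 ratio −1.57 ± 0.21, adjusted p = 0.0384). This call was lost in 9 of 15 alternatives (highest adjusted p = 0.322), among them no filter on low counts, the replicate block, and leaving out KLE-2 cleavage replicate 1 or 4 or control replicate 1, 2 or 3, while the ratio stayed between −2.49 and −0.94. *idpc-6* had 1.38, 2.79, 0.524 and 1.17 CPM, against 25.3, 22.5, 18.2 and 9.70 CPM in controls. The window II:14550001-14600000, on the right arm of II, was lower (−1.33 ± 0.15, adjusted p = 0.0173), with 4 called genes, among them *nspb-7*, *nspb-8* and *nspb-9*, which encode small nematode-specific peptides. *nspb-8* had 0.186, 0.0941, 0.112 and 0.160 CPM, against 1.27, 1.26, 1.05 and 0.80 CPM. In the same window *nspb-7* and *nspb-9* passed the filter on low counts through the controls alone, so they could be tested only as lower genes. When only genes with a mean of 5 CPM or more were used, that window's value was 0.03, so its ratio rests on genes of low level. Its call was also lost with no filter on low counts and without KLE-2 cleavage replicate 1 or any 1 control. Other genes that were lower included *pqn-54*, named for a protein rich in glutamine and asparagine, on the left arm of V, with 2.14, 4.75, 5.69 and 1.71 CPM, against 36.2, 33.5, 22.9 and 12 CPM, and *abu-6* in its centre, with 0.428, 0.923, 0.15 and 0.416 CPM, against 18.2, 12.9, 13 and 5.08 CPM. In the centre of V *far-3*, which binds fatty acids and retinol, was higher, with 124, 53.4, 27.7 and 85.5 CPM, against 7.17, 1.88, 11.4 and 4.56 CPM.

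SCC-1 cleavage, set against the same 4 controls as DPY-26 and KLE-2 cleavage, changed more genes. In the arms 607 of 3729 genes were higher (16.3%) and 422 lower (11.3%), and in the centres 903 of 6250 were higher (14.4%) and 987 lower (15.8%), while over all genes 14.4% were higher and 14.6% lower. Of 551 arm windows 91 were higher (16.5%) and 37 lower (6.72%), and of 690 centre windows 73 were higher (10.6%) and 69 lower (10%), against 11.6% higher and 8.67% lower over all windows. The arm share was above the genome's share for windows that were higher and below it for those that were lower. Arm windows had a median of 6 tested genes and centre windows 9, and arm ratios spread more (SD 0.36, against 0.29). With DESeq2 size factors 84 arm windows were higher and 40 lower, and 66 centre windows were higher and 77 lower. The median ratio was 0.06 over arm windows and 0.01 over centre windows, and 63.7% of arm windows and 52.6% of centre windows lay above 0. By distance it was 0.02 in the outermost 1 Mb, 0.07, 0.08 and 0.06 in the next 3 Mb and 0.02 between 4 and 5 Mb. Within 500 kb of the arm boundary it was 0.08 inside and 0.02 outside.

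The left arm of V led the regions. Its 70 windows had a median ratio of 0.19, with 21 called higher and 1 lower, and its sample medians ran between 0.049 and 0.16 in SCC-1 cleavage, against −0.13 to −0.030 in controls, with no overlap. The left arm of II followed with 0.08 (13 windows higher, 3 lower), then the right arm of V with 0.06 (14 higher, 5 lower) and the right arm of III with 0.06 (12 higher, 3 lower), each without overlap of the samples. Between TIR1 and TEV animals on auxin, where no kleisin is cut, the left arm of II had 0.12, the left arm of V 0.08 and the right arm of V 0.04, also without overlap. The right arm of II, at 0.0068, and the left arm of III, at 0.01, overlapped their controls. The difference of the gap from controls was also seen within the 4 classes of control expression: it was 0.048, 0.022, 0.041 and 0.048 from the lowest class to the highest, and the groups overlapped in the first and second classes and not in the others.

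**Figure D3:**
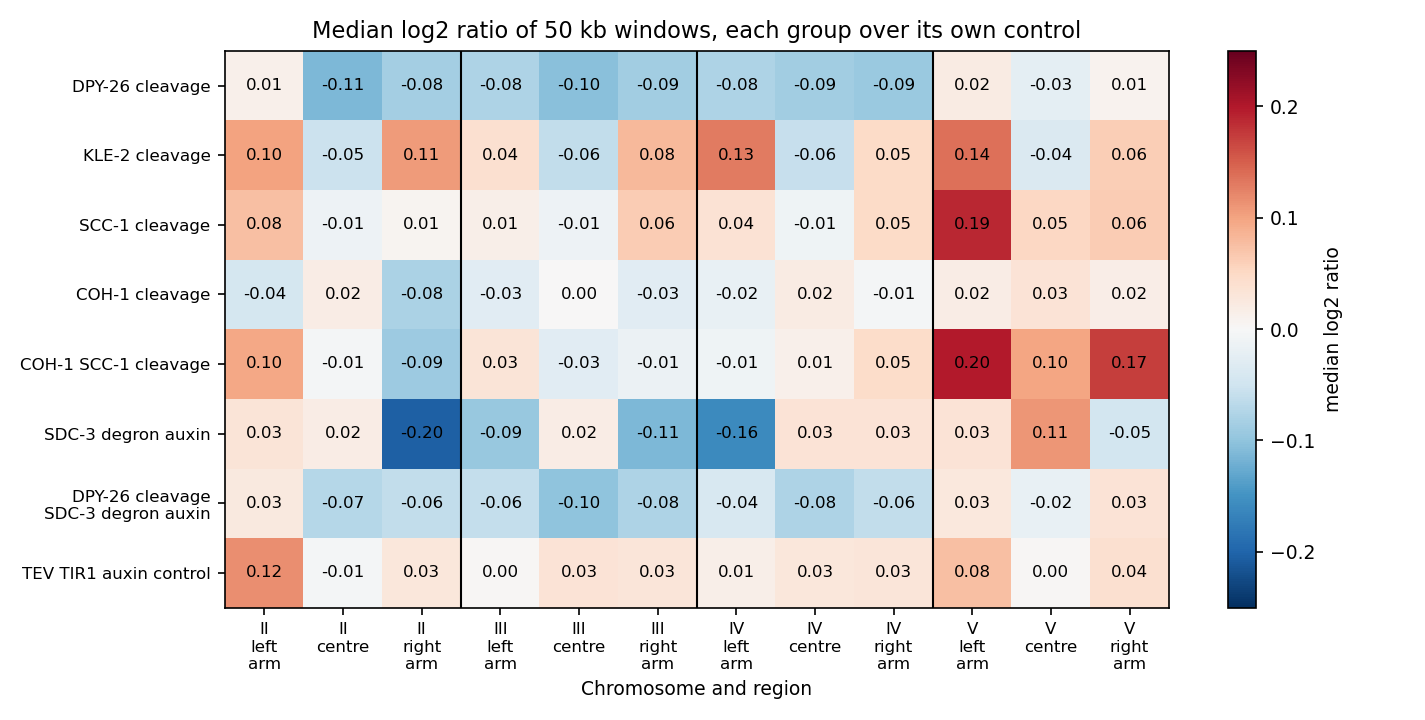
Median log2 ratio of the 50 kb windows of each arm and centre of II, III, IV and V, for each group over its control. The left arm of V has 0.19 in SCC-1 cleavage and 0.20 in COH-1 SCC-1 cleavage. The right arm of II has −0.20 in SDC-3 degron animals on auxin, where the groups overlap, and −0.07 without SDC-3 degron no auxin replicate 3.

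In SCC-1 cleavage the F-box window of II was higher again, at 0.50, 0.34, 1.28 and 0.81, against −1.03, −0.73, −0.36 and −0.32 in controls (log2 ratio 1.34 ± 0.22, adjusted p = 0.0051). *fbxa-163* had 2.12, 1.70, 2.54 and 3.46 CPM, against 0.108, 0.0856, 0.0784 and 0.0632 CPM in controls, and *bath-47*, with a MATH and a BTB domain, had 3.11, 1.80, 4.23 and 3.34 CPM, against 0.694, 0.856, 1.66 and 1.77 CPM. Of these, *fbxa-163* passed the filter on low counts through SCC-1 cleavage alone, so it could be tested only as a higher gene. The highest arm window was V:18400001-18450000 (1.99 ± 0.28, adjusted p = 0.00298), in which *ZK262.2* had 2.98, 1.67, 3.48 and 2.13 CPM, against 0.542, 0.385, 0.925 and 0.632 CPM. The window had 3 tested genes. With no filter on low counts its ratio was 0.14 (adjusted p = 0.442), and it was not called. The highest centre window, V:4950001-5000000, with 3 tested genes, holds 2 genes of sodium/calcium exchangers, *ncx-8*, with 25, 18.2, 23.9 and 18.4 CPM, against 2.25, 2.44, 6.71 and 6.18 CPM in controls, and *ncx-9*.

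The *idpc* window of V was the lowest of the centres, at −1.24, −1.78, −1.13 and −0.65, against 1.64, 1.19, 1.18 and 0.56 in controls (log2 ratio −2.34 ± 0.26, adjusted p = 0.00143). In it *pqn-63* had 1.12, 1.82, 1.05 and 1.94 CPM, against 66.0, 59.9, 41.0 and 23.2 CPM. The lowest arm window was III:2000001-2050000 (−2.74 ± 0.35, adjusted p = 0.00246, 3 tested genes), in which *dpy-1*, named for the short, stout body of its mutants, had 15.4, 38.2, 12 and 40.4 CPM, against 188, 183, 139 and 141 CPM. The window V:4400001-4450000, in the centre, was lower at −1.71 ± 0.32 (adjusted p = 0.0078). In III:2000001-2050000 the log2 ratio between TIR1 and TEV animals on auxin, where no kleisin is cut, was −3.37 ± 0.30, and in V:4400001-4450000 it was −2.30 ± 0.36. With no filter on low counts the window V:4400001-4450000 was called in neither comparison, with −0.05 in SCC-1 cleavage (adjusted p = 0.587) and −0.13 between TIR1 and TEV animals (adjusted p = 0.487), and the second of these calls was also lost without TEV auxin control replicate 2.

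Over all tested genes of II to V 15.1% were higher and 14.1% lower. F-box genes had 31 higher and 1 lower of 125 tested (median log2 ratio 0.34, against 0.04 over all tested genes of II to V), 26 of the higher ones in arms. Nuclear hormone receptors had 37 higher and 10 lower of 177, 20 of the higher ones in arms, and C-type lectins 25 higher and 12 lower of 109. Collagens had 22 higher and 48 lower of 93 (median −1.09), with 7 higher and 11 lower in arms and 15 higher and 37 lower in centres. Germline genes had 0 higher and 2 lower of 46. Changing the scaling to DESeq2 size factors or to factors from I to V left these lists on the same side of 0. The collagen *col-98*, on the right arm of III, had 930, 480, 1170 and 454 CPM in SCC-1 cleavage, against 22.0, 19.9, 136 and 55.4 CPM in controls, while *col-133* had 0.698, 1.07, 1.66 and 1.02 CPM, against 35.7, 32.1, 27.4 and 17.7 CPM, so single collagens differed in direction. The summed level of the 173 collagens was between 10210 and 14990 TPM in SCC-1 cleavage, against 11665 to 16798 TPM in controls. It overlapped. Summed muscle markers were 12954 to 15698 TPM, against 10805 to 12666 TPM, neuron markers 1137 to 1285 TPM, against 1064 to 1111 TPM, and intestine markers 5933 to 7139 TPM, against 5371 to 5643 TPM, all without overlap. Counted as single genes of all chromosomes, muscle had 7 higher and 6 lower of 39 tested (median 0.04). Neurons had 7 higher and 7 lower of 44 (median 0.00041), and intestine 3 higher and 5 lower of 28 (median −0.04). The part of these markers in the results was not tested.

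COH-1 cleavage gave almost no calls here. The study used DESeq2 and other filters on these samples and reported many called genes in both directions, most of them with small changes. None of 9600 tested genes of II to V was called in either direction by edgeR, against 0.00719% higher and 0% lower over all genes, and 393 were higher and 261 lower at an unadjusted p under 0.05. DESeq2 called 100 genes of II to V. In this comparison replicates with the same number deviated together, and the study plots fold changes of these samples by replicate batch. The numbers may therefore mark pairs, which the main fit ignores. With the replicate block edgeR called 7 genes of II to V. Of the windows, 1 arm window was higher and 1 was lower, against 0.0545% of all windows in each direction, and the centres had none of 681 called, with 35 higher and 7 lower at an unadjusted p under 0.05. With the block 7 windows of II to V were called. The median ratio was −0.03 over arm windows and 0.02 over centre windows.

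The window that was higher, V:17100001-17150000 on the right arm of V, had 0.85, 1.31 and 1.52 in COH-1 cleavage, against −1.05, −1.17 and −0.64 in controls (log2 ratio 2.18 ± 0.21, adjusted p = 0.00864). It has 3 tested genes, and *ZK218.7*, which was not itself called, had 3.06, 8.70 and 6.72 CPM, against 0.272, 0.711 and 0.516 CPM. The window that was lower, II:12550001-12600000 on the right arm of II, had −0.51, −1.0 and −0.51, against 0.61, 0.85 and 0.84 (−1.44 ± 0.15, adjusted p = 0.0093). In it *F49C5.12* had 0.0214, 0.0318 and 0.0763 CPM, against 0.622, 0.643 and 0.945 CPM. This gene passed the filter on low counts through the controls alone, so it could be tested only as a lower gene. Both windows rest on 3 or 4 tested genes, and with at least 5 tested genes per window neither could be tested. The call of the lower one was lost with no filter on low counts and without COH-1 cleavage replicate 1 or any 1 control, and that of the higher one without TEV control batch 2 replicate 1.

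COH-1 SCC-1 cleavage, against the same 3 controls as COH-1 cleavage, changed many genes. In the arms 398 of 3625 genes were higher (11%) and 361 lower (9.96%), and in the centres 684 of 6094 were higher (11.2%) and 707 lower (11.6%), while 10.3% of all genes were higher and 11% lower. Of 547 arm windows 77 were higher (14.1%) and 31 lower (5.67%), and of 683 centre windows 85 were higher (12.4%) and 55 lower (8.05%), against 11.6% higher and 6.95% lower over all windows. Leaving out 1 COH-1 SCC-1 library left between 67 and 85 called windows on II to V, and between 612 and 963 called genes. The median ratio was 0.03 over both arm and centre windows.

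Chromosome V had the highest median window ratio in COH-1 SCC-1 cleavage (0.115), followed by X (0.082). V was also the highest of I to V in SCC-1 (0.069), COH-1 (0.029) and DPY-26 cleavage (−0.019) and in SDC-3 degron animals with and without DPY-26 cleavage. It was not in KLE-2 cleavage or between TIR1 and TEV animals. In COH-1 SCC-1 cleavage the left arm of V had a median ratio of 0.20 (23 windows higher, 4 lower of 72), its right arm 0.17 (15 higher, 2 lower of 68) and its centre 0.10 (49 higher, 14 lower of 249), and in all of them the sample medians did not overlap those of controls. In the left arm they were 0.080 to 0.10, against −0.17 to −0.043 in controls. The right arm of II had −0.09, the lowest of the regions, and overlapped its controls (−0.065 to 0.012, against 0.0024 to 0.10).

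**Figure D4:**
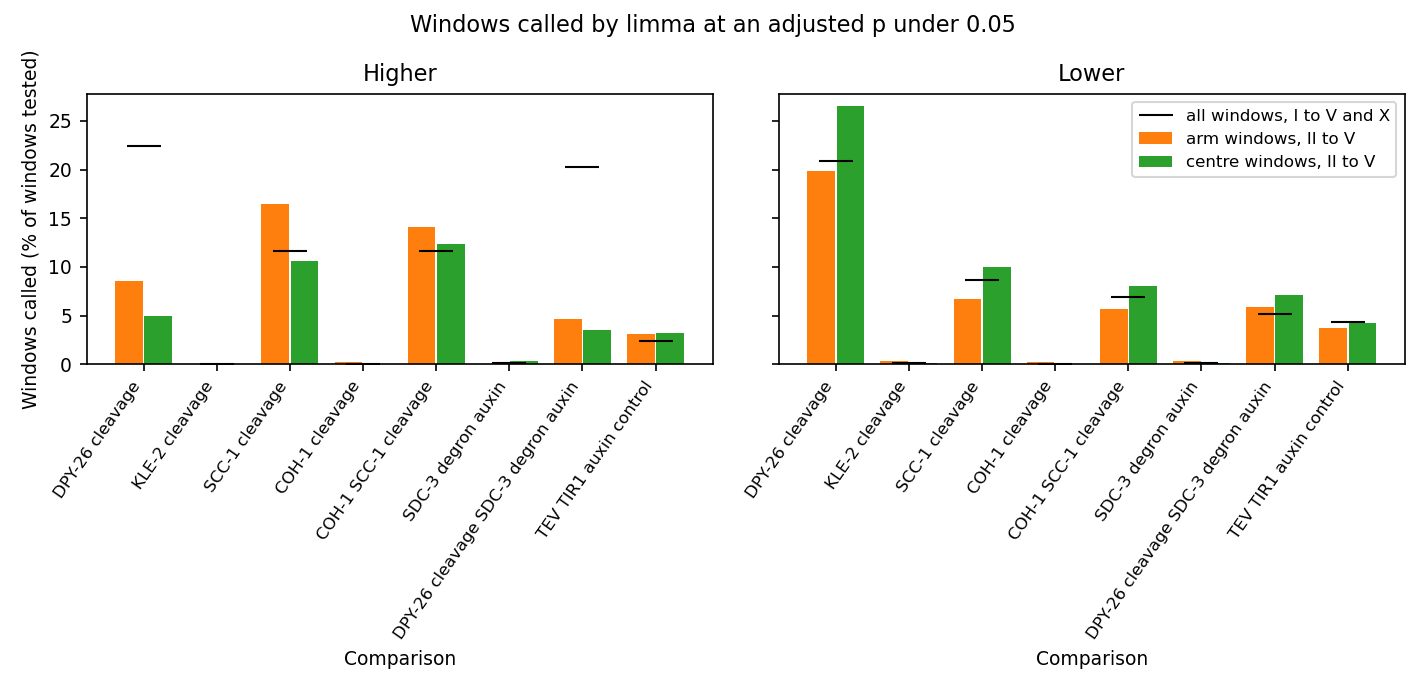
Windows called higher (left panel) or lower (right panel) by limma, in % of windows tested, for arms (orange) and centres (green) of II to V and for all windows of I to V and X (black marks). In SCC-1 cleavage 16.5% of arm windows and 10.6% of centre windows were higher, and 6.72% and 10% were lower.

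The F-box window of II was the highest arm window of COH-1 SCC-1 cleavage, at 0.76, 0.93 and 1.16, against −1.01, −1.31 and −0.40 in controls (log2 ratio 1.86 ± 0.21, adjusted p = 0.00237). *fbxa-158* had 2.09, 1.83 and 2.15 CPM, against 0.121, 0.418 and 0.220 CPM, and *fbxa-163* had 3.24, 2.45 and 2.67 CPM, while it had 0.0402 CPM in 1 control and no read in the others. *fbxa-163* passed the filter on low counts through the cleavage libraries alone, so it could be tested only as a higher gene. In COH-1 cleavage alone the window's ratio was −0.07 ± 0.35 (adjusted p = 0.964), in KLE-2 cleavage 0.73 ± 0.34 (adjusted p = 0.444) and in SDC-3 degron animals on auxin 0.28 ± 0.32 (adjusted p = 0.615). It was 0.70 ± 0.16 between TIR1 and TEV animals on auxin (adjusted p = 0.0372), so this window was also higher where no kleisin was cut.

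The window V:17100001-17150000 was higher here as well, at 0.80, 0.93 and 1.60, against −0.91, −0.68 and −0.18 (1.70 ± 0.25, adjusted p = 0.00613). In the centre of V the window 15800001-15850000 was highest, with 0.85, 0.81 and 0.82, against −0.70, −0.85 and −0.95 (1.66 ± 0.09, adjusted p = 0.000166). There the F-box gene *fbxa-69* had 5.23, 4.97 and 5.54 CPM, against 1.02, 0.974 and 1.58 CPM, and the chemoreceptor *srd-27* had 2.54, 3.40 and 2.37 CPM, against 0.924, 0.522 and 0.703 CPM. Among single genes *lipl-3*, a lysosomal lipase on the left arm of V, had 29.0, 31.9 and 23.2 CPM, against 2.23, 0.522 and 1.76 CPM in controls. *lips-6*, a lipase-like gene in the centre of IV, was the lowest, with 0.195, 1.24 and 0.188 CPM, against 87.5, 137 and 76.1 CPM.

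The lowest windows were III:2000001-2050000 in the arms (−2.32 ± 0.34, adjusted p = 0.00627, 3 tested genes) and V:15300001-15350000 in the centres, at −1.32, −0.40 and −1.69, against 0.70, 2.10 and 0.24 (−2.15 ± 0.48, adjusted p = 0.0224). In the first *dpy-1* had 20.6, 26.1 and 8.92 CPM, against 132, 146 and 57.2 CPM. In the other *wrt-8* had 2.11, 3.55 and 1.24 CPM, against 17.9, 29.4 and 13.9 CPM. The call of V:15300001-15350000 was lost without COH-1 SCC-1 cleavage replicate 1 or replicate 3, and with no filter on low counts its ratio was −0.04 (adjusted p = 0.853). Both windows were also lower between TIR1 and TEV animals on auxin, with −3.37 ± 0.30 and −1.57 ± 0.14.

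Over all tested genes of II to V 11.1% were higher and 11% lower. F-box genes had 26 higher and 2 lower of 127 (median 0.34, against 0.0066 over all tested genes of II to V), and 22 of the higher ones were in arms. Nuclear hormone receptors had 29 higher and 4 lower of 174, and chemoreceptors 12 higher and 1 lower of 137, a share of higher calls below that of all genes. Collagens had 3 higher and 30 lower of 87 (median −0.83). Germline genes, nearly all of them in centres, had 1 higher and 17 lower of 46 (median −0.56), and no other comparison had more than 4 called lower. In COH-1 cleavage, with the same controls, none of the 46 was called, but only 4 had a log2 ratio above 0 (median −0.21). The summed level of all 71 germline genes was 409 to 639 TPM in COH-1 SCC-1 cleavage, against 448 to 756 TPM in controls, and 56 to 61 of them, against 57 to 64, reached 1 TPM. Summed muscle markers were 26872 to 29175 TPM, against 19685 to 23381 TPM, without overlap, and so were neuron markers, at 2207 to 2818 TPM, against 1300 to 2103 TPM. The part of these in the window ratios was not tested, beyond a run without germline and collagen genes.

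**Figure D5:**
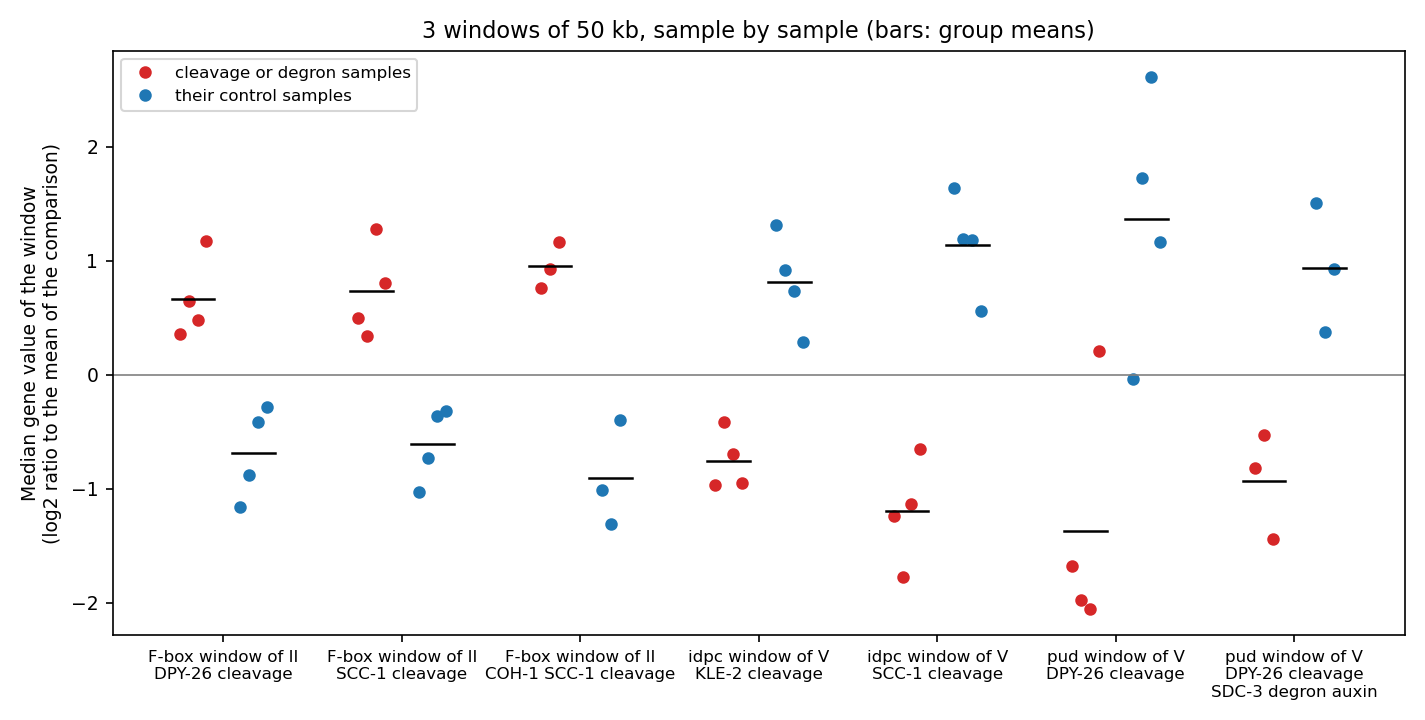
Median gene value of 3 windows in each sample, on the log2 scale relative to the mean of the comparison (red, cleavage or degron; blue, controls; black bars, means): the F-box window of the left arm of II, the *idpc* window of the centre of V and the *pud* window of the left arm of V. The F-box window lies above controls in the 3 comparisons shown for it, and DPY-26 cleavage replicate 4, at 0.21, overlaps its controls in the *pud* window.

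Where no kleisin or SDC-3 was targeted, TIR1 animals on auxin against TEV animals on auxin, the calls on II to V were not fewer than in several comparisons above. In the arms 198 of 3557 genes were higher (5.57%) and 315 lower (8.86%), and in the centres 300 of 6004 were higher (5.0%) and 608 lower (10.1%), against 4.68% higher and 9.76% lower over all genes. Windows called were 17 higher and 20 lower of 540 in arms and 22 higher and 29 lower of 683 in centres, against 2.40% higher and 4.36% lower over all windows. Collagens had 14 higher and 37 lower of 83, against 5.21% higher and 9.65% lower over all tested genes of II to V. The small heat-shock gene *hsp-16.2* had 309, 666 and 479 CPM in TIR1 animals, against 30.4, 53.3 and 30.0 CPM in TEV animals, and *srw-85* had 26.1, 26.2 and 28.5 CPM, against 0.503, 0.701 and 0.452 CPM.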

How the data were processed

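RNA was measured by stranded mRNA sequencing of 40 samples of whole L3 larvae. The authors deposited, per transcript, the estimated count of reads and the TPM that Salmon gave. The submitters' processing notes name cutadapt 2.5, Salmon 1.5.2 and STAR 2.7.9a, and the transcriptome release behind the estimates is not given in the sources used here. Transcripts were assigned to genes with the Ensembl 115 annotation of WBcel235, and lanes and transcripts were summed and rounded. Genes with at least 10 reads in at least 50% of the samples of a comparison were tested. The oscillating genes that the study set aside were kept.

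Genes were tested with edgeR 4.0.16 (quasi-likelihood test, TMM) and windows with limma 3.58.1 on the per-sample median of log2 CPM (prior count 2) over at least 3 tested genes, in R 4.3.3, with Benjamini-Hochberg adjustment over all genes or windows of I to V and X and a threshold of 0.05. Both were tested on simulated data. Per-group levels used log2(TPM + 1), with a pseudocount of 1. Tables and figures were made with Python 3.11.15, numpy 2.4.6, pandas 2.3.3 and matplotlib 3.10.9. Each group was compared with the control of its own batch. The alternatives were DESeq2 1.42.0 (Wald test or size factors), TMM factors from I to V, other filters, window and arm sizes, the replicate number as a block, another control, thinned reads (chosen after seeing the data) and each library left out. In COH-1 cleavage the deviations of same-numbered samples correlated in every pair (r of 0.44, 0.59 and 0.51), so the block is given beside that result.

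The windows named were the 2 highest and the 2 lowest called in arms and in centres of each comparison, or that with the smallest p, with up to 3 called genes in each that changed most, and the 3 highest and 3 lowest called genes of at least 5 CPM with groups that do not overlap. A few further genes were named after their values were seen. The members and gene lists were chosen with earlier results of these data known. Libraries held 20460404 to 88427247 reads, of which at most 0.0128% fell on transcripts without a gene. No 2 libraries of a group agreed within sampling noise.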

Additional observations from a re-analysis of the deposited data

Results flagged for a closer look

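Of 48 groups of 4 samples examined, 5 had 1 sample far from the others. The cut used flags about 1 in 20 groups of independent samples. Most groups here were windows picked from these data, and the batch 1 controls recur in them, so that rate does not hold. KLE-2 cleavage replicate 3 had an arm minus centre gap of 0.39, while the other KLE-2 libraries had −0.050 to 0.0072. The same library had an arm minus centre level of −0.37 on the log2(TPM + 1) scale, while the others had −0.80 to −0.73. In DPY-26 cleavage, replicate 4 had 0.21 in the *pud* window V:2300001-2350000, while the others had −2.05 to −1.68. DPY-26 cleavage replicate 2 had 1.38 in the window V:15400001-15450000, while the others had 0.46 to 0.59. It also had 0.74 in the window V:8750001-8800000, while the others had 0.39 to 0.45.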

How the results depend on the processing

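Control levels were lower in arms than in centres under all alternatives run. Arms minus centres was −1.01, −0.84, −0.89 and −0.88 with a pseudocount of 0.1 in the TEV controls of batch 1 and batch 2, SDC-3 degron no auxin and the TEV TIR1 auxin control, −0.66, −0.47, −0.51 and −0.60 with genes above 0 TPM in every sample, and −0.64, −0.54, −0.51 and −0.51 with arms of 3 Mb, and −0.67 and −0.61 in the first 2 of these with arms of 5 Mb. The SCC-1 gap stayed between 0.042 and 0.055 under all its alternatives. The DPY-26 gap was 0.036 with no filter on low counts and 0.00057 with genes of at least 5 CPM. Without 1 library the sign of the gap changed in COH-1 SCC-1 cleavage (−0.011 without TEV control batch 2 replicate 2, and −0.0081 with genes of at least 5 CPM), in DPY-26 cleavage with the SDC-3 degron (−0.0026 without its replicate 1), in SDC-3 degron animals (0.012 without no auxin replicate 3) and between TIR1 and TEV animals (−0.018 without TIR1 replicate 1).

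The DESeq2 Wald test called 685 genes of II to V in KLE-2 cleavage, 100 in COH-1 cleavage and 1103 in SDC-3 degron animals, where no filter gave 209. DPY-26 windows numbered 211 with factors from I to V. KLE-2 windows numbered 0 with no filter or with 100 kb, and 1 with genes of at least 5 CPM or without germline and collagen genes. COH-1 windows numbered 1 with no filter, and 0 with at least 5 tested genes, 100 kb or 5 CPM. SDC-3 windows numbered 3 with at least 5 tested genes, and 0 with 100 kb or 5 CPM. With 100 kb there were 147 in SCC-1, 129 in COH-1 SCC-1, 78 in DPY-26 SDC-3 and 40 in TIR1 animals. With the TEV auxin control, DPY-26 SDC-3 animals had 2561 genes and 364 windows called.

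With the replicate block, genes called were 7 in COH-1, 23 in KLE-2, 687 in SDC-3 and 2078 in DPY-26 SDC-3 animals, and windows 7, 0, 14 and 259, and 167 windows in TIR1 animals. Only in COH-1 cleavage did all same-numbered samples correlate with r of at least 0.44. In COH-1 SCC-1 cleavage, with the same controls, every sample correlated best with its own number (r of 0.51, 0.081 and 0.28). The study plots fold changes by replicate batch for COH-1 cleavage and does not say so for this group. The main counts, gaps, region medians and overlaps take no account of such pairs.

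With no filter on low counts 34 of the named windows stayed called or uncalled as reported and 17 lost their call, with ratios nearer 0 in many of those that stayed called, such as −1.24 in the *pud* window of DPY-26 cleavage. Directions reversed in the window II:14550001-14600000 of KLE-2 cleavage (0.033) and IV:3300001-3350000 of DPY-26 SDC-3 animals (−0.10) with genes of at least 5 CPM, and with the TEV auxin control in V:15300001-15350000 (−1.13), *clec-230* (−1.90) and *wrt-8* (−3.17).

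Leaving out 1 library gave 918 to 2416 genes and 242 to about 3.8e+02 windows in DPY-26, 0 to 232 and 0 to 11 in KLE-2, 2008 to 2963 and 173 to 278 in SCC-1, 0 and 1 to 2 in COH-1, 612 to 2305 and 67 to 264 in COH-1 SCC-1, 0 to 835 and 0 to 104 in SDC-3, 284 to 805 and 55 to 152 in DPY-26 SDC-3, and 868 to 1484 and 34 to 90 in TIR1 animals. Libraries whose absence moved a count by more than 1.5 times were as follows. In DPY-26 cleavage, 1275 genes were called without its replicate 1, 1108 genes and 242 windows without its replicate 3, and 1197 genes without TEV control replicate 1, 945 genes and 246 windows without control replicate 2 and 918 genes and 247 windows without control replicate 4. In KLE-2 cleavage no gene and no window was called without its replicate 1 or control replicates 1, 2 or 3, while 202 genes were called without replicate 2, 232 genes and 11 windows without replicate 3, 10 genes and 1 window without replicate 4, and 67 genes and 1 window without control replicate 4. In SCC-1 cleavage 175 windows were called without its replicate 1 and 173 without control replicate 2. In COH-1 cleavage 1 window was called without its replicate 1 or control replicates 1 or 3. In COH-1 SCC-1 cleavage 612, 963 and 655 genes and 85, 85 and 67 windows were called without its replicates 1, 2 and 3. In SDC-3 degron animals no gene and no window was called without auxin replicate 1, 410 genes without auxin replicate 2, 1 gene and no window without auxin replicate 3, no gene without no auxin replicates 1 or 2 (with 1 and 3 windows), and 835 genes and 104 windows without no auxin replicate 3. In DPY-26 SDC-3 animals 284 to 393 genes were called without any 1 of its replicates, 55 windows without replicate 2 and 82 without replicate 3, and 309 genes and 57 windows without TIR1 control replicate 2. Between TIR1 and TEV animals 922 genes and 52 windows were called without TIR1 replicate 2, 38 windows without TEV auxin replicate 1, and 868 genes and 34 windows without TEV auxin replicate 2. The causes of these changes were not tested.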
